A study of Bos taurus with 9 samples.

Results

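Genes of the death receptor route to apoptosis were followed in cultured bovine endometrial cells (BEND). They were taken by symbol from the authors' expression table, which gave 8 of its 17162 genes. They are the ligand TNFSF10 (also called TRAIL), the receptors FAS and TNFRSF1A, the adaptor FADD, the initiator caspase CASP8, its inhibitor-like relative CFLAR, the caspase inhibitor XIAP and the XIAP-associated factor XAF1. RNA from 9 libraries was sequenced, 3 from each of 3 groups. CON cells received neither hormone nor interferon. GA cells received 1 nM 17β-estradiol (E2) with 100 nM progesterone (P4) for 12 h. GB cells received the same hormones for 12 h and then 100 ng/mL interferon tau (IFNT), a type I interferon made by the conceptus of ruminants, for a further 12 h. All 3 groups were primary cells from the uteri of Holstein cows collected at an abattoir, enriched by differential attachment over passages and grown with 10% fetal bovine serum. No separate collection time of CON and GA was found in the labels or methods. A longer culture, or a longer time on the hormones, can therefore not be told apart from IFNT in GB.

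In the death receptor pathway, a ligand such as TNFSF10 or FAS ligand binds its receptor, which recruits FADD, and FADD in turn gathers procaspase-8, so that CASP8 is activated by proximity and cleaves the executioner caspases. CFLAR resembles CASP8 but lacks its catalytic activity, and it competes for the same complex. XIAP blocks caspases directly, XAF1 binds XIAP, and TNFRSF1A can either start cell death or switch on survival signalling, depending on the complex it assembles. Several of these genes are known interferon-stimulated genes, and IFNT acts on the endometrium during maternal recognition of pregnancy.

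Values are FPKM, fragment numbers scaled for exon length and for the mapped reads of the library, so that levels can be compared between genes per length. Differences are log2 fold changes (log2FC) of FPKM + 0.5, tested with limma in 1 fit over the 9 libraries and 12578 genes (mean FPKM 0.5 or more), with Benjamini-Hochberg adjustment over all of them. All 8 genes passed this filter, TNFSF10 only through the group in which it is high. A gene was called when the log2FC was above 1 or below -1 and the adjusted p was under 0.05. The sources call the 3 libraries of a group biological replicates without saying whether they came from separate animals, so the p-values measure the spread between these libraries. Pearson's r between libraries of a group was 0.989 to 0.991 across the tested genes, and the FPKM of a library summed to between 1395622 and 1442723. Read totals are not in the table. Low values of the other libraries had median ratios to CON1 of 0.945 to 1.12. Only ratios already near 1 were kept for these medians, from 5 to 11 genes per library. They therefore cannot decide by themselves whether the libraries had a similar depth. The study reports clean read numbers for each group that are close to one another, with GA highest. Read numbers of single libraries were not compared here. The treatments were visible in genes chosen to check them. The interferon-stimulated ISG15 reached an FPKM of 5582 ± 41.8 (SD, n = 3) in GB, against 4.25 ± 2.34 in GA. The log2FC of GB vs GA was 7.64 for MX1. The estrogen-responsive GREB1 was called higher in GA than in CON, by 2.02 on the log2 scale with a limma adjusted p of 0.00639.

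The cells are described by the study as epithelial and were identified there by cytokeratin staining, but their RNA goes against this. Of 6 epithelial markers, 5 were in the table (KRT7, KRT8, KRT18, KRT19 and CDH1), and each stayed under 1 FPKM in every library. Their summed FPKM was 0.43 to 1.08 (CON), 0.78 to 1.27 (GA) and 0.52 to 1.38 (GB), ranges that overlap. All 8 stromal fibroblast markers were abundant, and their sums of 15041 to 15152 in GB lay below those of CON (16642 to 17220) and GA (16824 to 17208). Most of that sum is VIM, with a mean of 7777 in GB, 8759 in GA and 9082 in CON, and the markers did not all move alike, since DCN averaged 849.8 in CON, 1116 in GA and 945 in GB. Endothelial markers were low, with sums of 2.15 to 3.34 in GB, 1.33 to 1.68 in GA and 1.6 to 2.2 in CON, and CDH5 had a log2FC of 0.68 in GB vs GA (limma adjusted p 0.0395). The 4 immune markers in the table summed to 20.8 to 27.6 over all libraries. The part of these markers in the results was not tested. The results below are therefore those of the cultures labelled BEND. In bulk RNA, fewer cells of a type and less RNA per cell cannot be told apart.

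TNFSF10, the ligand, went from the bottom of the 8 genes to near their top. Its FPKM was 0.22, 0 and 0 in the CON libraries, 0.39, 0 and 0 in the GA libraries, and 130.37, 147.06 and 138.34 in the GB libraries. It was thus listed at 0 in 4 of the 6 libraries without IFNT and abundant in each of the 3 with it, with no overlap. The log2FC was 7.84 in GB vs GA (SE 0.24, 95% interval 7.30 to 8.38, limma adjusted p 1.1e-08) and 7.94 in GB vs CON (SE 0.24, adjusted p 9.9e-09). These were the 9th and 8th largest rises among the 12578 genes tested. Because the other groups are at or near 0, these sizes depend on the constant added before the logarithm and ran from 6.97 to 9.67 for GB vs GA over the alternatives. In GA vs CON the log2FC was 0.10, with a 95% interval of -0.43 to 0.64 and an adjusted p of 0.842.

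The receptors changed far less than the ligand. FAS, the receptor of FAS ligand, had an FPKM of 24.95, 24.85 and 27.50 in CON, 29.05, 26.12 and 28.78 in GA, and 36.73, 32.79 and 39.45 in GB. The lowest GB library lay above the highest of the other 6, while CON and GA overlapped. FAS was 1.29-fold higher in GB than in GA (log2FC 0.37, SE 0.080, limma adjusted p 0.0079) and higher than in CON by 0.48 on the log2 scale (adjusted p 0.00162), both below the fold needed for a call. The GB vs CON difference lost its adjusted p when GC content, as the study lists it per library, was added to the fit (highest adjusted p 0.167). Its log2FC was then 0.37 (SE 0.15), or 0.65 (SE 0.13) with the replicate block as well, against 0.48 (SE 0.080) without, so that the loss goes with a wider error. CON libraries all have a higher GC content in the study's quality table than those of GA and GB, so group and GC content are largely confounded there.

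TNFRSF1A, the main receptor of TNF, was the most abundant of the 8 genes in CON and GA. Its FPKM was 107.78, 89.88 and 114.33 in CON, 100.32, 102.56 and 124.54 in GA, and 123.12, 115.83 and 117.67 in GB. The 3 groups overlapped, with the highest single value in a GA library. The log2FC was 0.13 in GB vs GA (95% interval -0.10 to 0.36, limma adjusted p 0.384) and 0.20 in GB vs CON (-0.03 to 0.43, adjusted p 0.165), so that a rise of more than 0.43 lies outside both intervals and a smaller one does not.

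The receptors of TNFSF10 itself carry other names in this annotation. The table had no row for TNFRSF10A or TNFRSF10B by symbol, which were not analysed here, but 5 rows were described as TRAIL receptor or TRAIL receptor-like proteins. They were picked by that description after their values were seen, and reads may be split among them because such copies can be nearly identical. TNFRSF10D, LOC112445390, LOC784541 and LOC104968444 were expressed in every library, and LOC112445701 was listed at 0 except for 1.76 in CON replicate 3. Summed per library, the 5 rows reached 58.60, 58.34 and 84.44 FPKM in CON, 76.23, 70.35 and 76.94 in GA, and 66.49, 66.74 and 70.89 in GB. The sums of GB and GA overlapped, and 1 CON library was the highest of all. On the log2 scale GB differed from GA by -0.13 (exact two-sided permutation p 0.2) and from CON by 0.04 (exact permutation p 1), where 3 libraries against 3 cannot give a p under 0.1. None of the 4 tested rows passed the limma test in GB vs GA, with log2FC between -0.16 and -0.06 and adjusted p of 0.414 to 0.807. At an unadjusted p under 0.05 the count in GB vs GA was also 0. The upper 95% bounds of these 4 rows were 0.12 to 0.29, so a rise near that of the ligand lies far outside them.

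FADD, the adaptor that links the receptors to CASP8, was already abundant without treatment. Its FPKM was 92.13, 100.79 and 116.65 in CON, 94.08, 109.38 and 114.13 in GA, and 150.93, 144.01 and 146.11 in GB. Every GB library was above every other, and CON and GA spanned nearly the same range. It was 1.39-fold higher in GB than in GA (log2FC 0.48, SE 0.093, 95% interval 0.27 to 0.69, limma adjusted p 0.00472) and 1.43-fold higher than in CON (adjusted p 0.00266). The second of these lost its adjusted p with GC content in the fit (highest adjusted p 0.198), where the log2FC was 0.41 (SE 0.18), or 0.60 (SE 0.20) with the block, against 0.52 (SE 0.093) without. In GA vs CON the log2FC was 0.04 (-0.17 to 0.25, adjusted p 0.848).

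CASP8, the initiator caspase of the pathway, was low without IFNT. Its FPKM was 8.57, 6.94 and 8.87 in CON, 9.80, 9.82 and 9.65 in GA, and 51.11, 44.86 and 51.48 in GB. The lowest GB library was several times the highest GA library. CASP8 rose 4.83-fold in GB vs GA (log2FC 2.27, SE 0.095, 95% interval 2.06 to 2.49, limma adjusted p 1.3e-07) and 5.77-fold in GB vs CON (log2FC 2.53, adjusted p 5.4e-08), and was called in both. It ranked 138 and 124 by rise among the tested genes. CASP8 was also the only member with an unadjusted p under 0.05 in GA vs CON. Every GA library lay above every CON library, but how many of all genes show this was not counted. The GA vs CON log2FC was 0.26 (95% interval 0.04 to 0.47, p 0.0239), but after limma's adjustment over all genes p was 0.199.

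**Figure D1:**
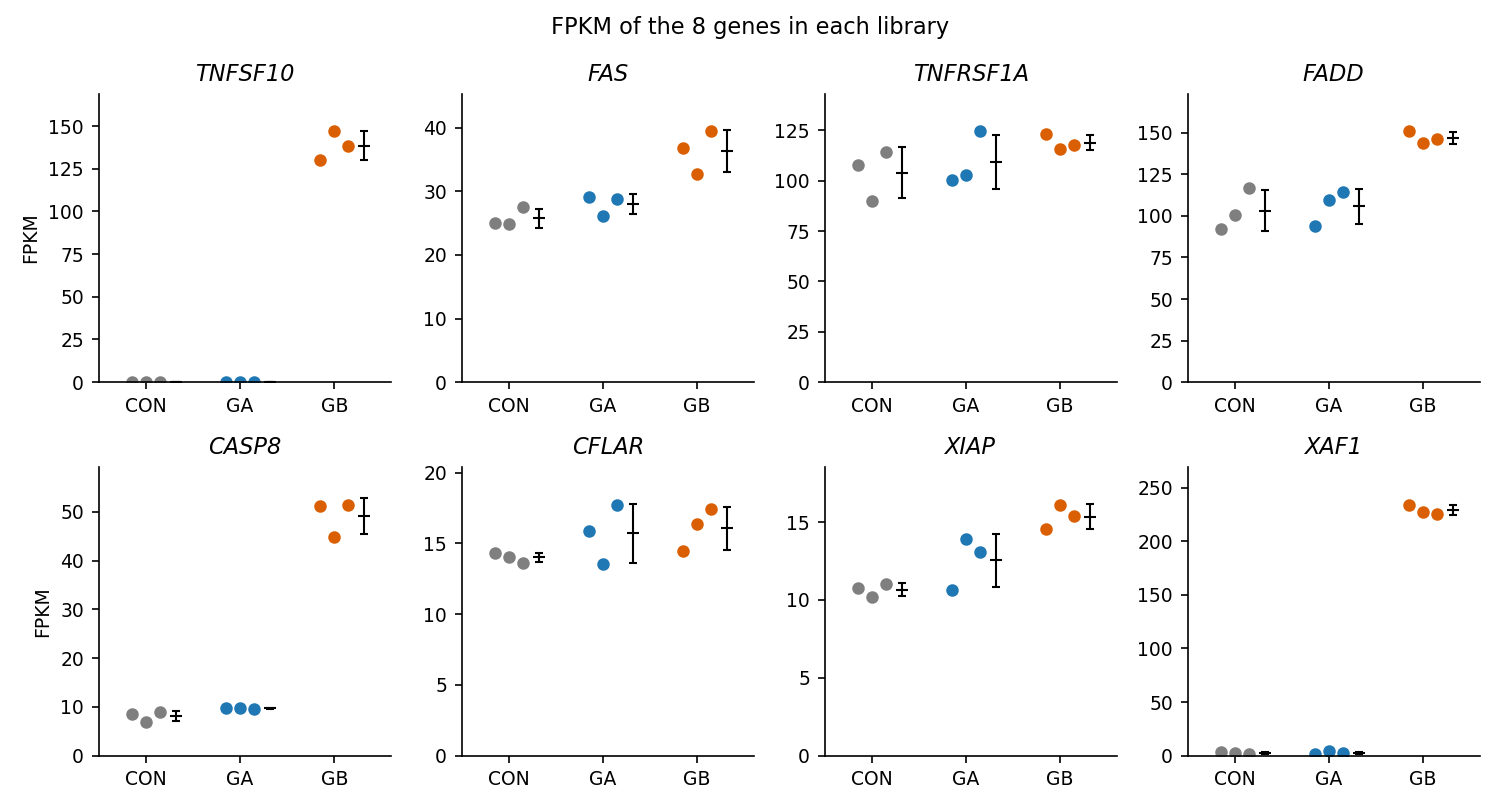
FPKM of each gene (vertical axis, linear from 0, 1 panel per gene) in the 3 CON, 3 GA and 3 GB libraries. Points are libraries, and the bar beside each group is its mean ± SD (n = 3). TNFSF10, CASP8 and XAF1 stand far above the other groups in GB, FAS, FADD and XIAP lie moderately above them, and TNFRSF1A and CFLAR overlap.

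CFLAR, which competes with CASP8 in the receptor complex, did not follow it. Its FPKM was 14.33, 14.06 and 13.65 in CON, 15.86, 13.58 and 17.74 in GA, and 14.44, 16.36 and 17.44 in GB. GA and GB covered nearly the same range, and both the lowest and the highest of the 9 values were in GA. The log2FC was 0.04 in GB vs GA (SE 0.10, 95% interval -0.20 to 0.27, limma adjusted p 0.830) and 0.19 in GB vs CON (-0.04 to 0.42, adjusted p 0.189). The sign of the first turns when GA replicate 2 or GB replicate 3 is left out, where the log2FC is -0.063 or -0.024.

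The balance of these 2 genes was compared within each library, which does not depend on scaling between libraries. The ratio of CFLAR to CASP8 FPKM averaged 1.75 ± 0.252 in CON and 1.61 ± 0.228 in GA (SD, n = 3), against 0.329 ± 0.0420 in GB. In CON and GA every library held more CFLAR than CASP8, with ratios of 1.38 to 2.03, and in GB every library held less, with ratios of 0.283 to 0.365. The ratio was 4.90-fold lower in GB than in GA and 5.31-fold lower than in CON, each with an exact two-sided permutation p of 0.1, the smallest that 3 against 3 allows. GA and CON differed by -0.11 on the log2 scale (exact permutation p 0.5). In the RefSeq table of the newer assembly ARS-UCD2.0, CFLAR and CASP8 lie on chromosome 2 with 2 protein-coding genes between them, 1 of which (LOC100848685) encodes a caspase-10. Its row was listed at 0 in every library but CON replicate 2, where it was 0.2.

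XIAP, the direct inhibitor of caspases, had an FPKM of 10.76, 10.21 and 11 in CON, 10.65, 13.89 and 13.07 in GA, and 14.56, 16.12 and 15.39 in GB. Every GB library was above every other, and GA replicate 1 lay among the CON values. XIAP was 1.42-fold higher in GB than in CON (log2FC 0.51, limma adjusted p 0.00364), a difference that lost its adjusted p with GC content in the fit (highest adjusted p 0.656), where the log2FC was 0.33 (SE 0.18), or 0.20 (SE 0.20) with the block. In GB vs GA its log2FC of 0.29 (SE 0.097, 95% interval 0.07 to 0.51) had an adjusted p of 0.0512. That p sits at the threshold and fell below 0.05 in 6 of 22 alternatives, among them 4 that rescale the libraries and 1 that leaves out GA replicate 2, with a range of 0.0167 to 0.142.

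XAF1, the XIAP-associated factor, became the most abundant of the 8 genes with IFNT. Its FPKM was 3.33, 2.45 and 1.81 in CON, 1.87, 3.91 and 2.49 in GA, and 234.02, 227.09 and 225.64 in GB. The CON and GA libraries overlapped, and the GB libraries were close to one another and far above both. XAF1 rose 72.8-fold in GB vs GA (log2FC 6.19, SE 0.23, 95% interval 5.67 to 6.70, limma adjusted p 5.0e-08) and 77.3-fold in GB vs CON (log2FC 6.27, adjusted p 4.4e-08). It ranked 28 and 23 by rise. In GA vs CON the log2FC was 0.09 (-0.43 to 0.60, adjusted p 0.863).

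The ratio of XAF1 to XIAP FPKM averaged 0.238 ± 0.0725 in CON and 0.216 ± 0.0573 in GA (SD, n = 3), against 14.9 ± 1.02 in GB. XIAP exceeded XAF1 in each library without IFNT, and XAF1 exceeded XIAP in each library with it. The ratio was 70.6-fold higher in GB than in GA (exact two-sided permutation p 0.1, the smallest possible), and GA and CON differed by -0.13 on the log2 scale (exact permutation p 0.8).

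**Figure D2:**
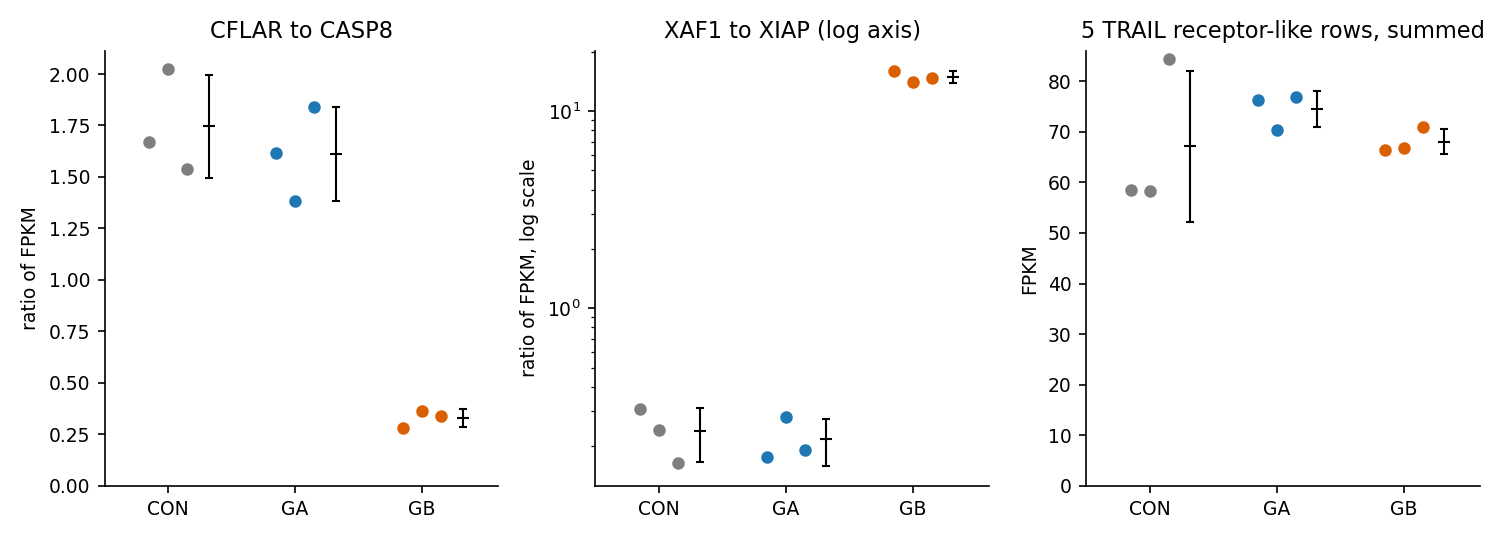
Ratio of CFLAR to CASP8 FPKM (left, linear axis), ratio of XAF1 to XIAP FPKM (middle, log axis) and summed FPKM of the 5 TRAIL receptor-like rows (right) in each library, with mean ± SD (n = 3) beside each group. The first ratio is 0.283 to 0.365 in GB against 1.38 to 2.03 in the other groups, the second is 14.1 to 16.1 in GB against at most 0.310, and the receptor sums overlap.

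Across the 8 genes, 3 were called higher in GB vs GA (TNFSF10, CASP8 and XAF1), where 2.66% of all tested genes were called higher, and none was called lower, where 0.978% of all were. The same 3 were called higher in GB vs CON, where the share over all genes was 2.94%. By adjusted p alone, 5 of 8 were higher in GB vs GA, with FAS and FADD added, against 9.87% of all genes, and 0 of 8 were lower in limma's test, against 19.2% of all genes. In GB vs CON 6 of 8 were higher by adjusted p alone, with XIAP added, against 16.2% of all. Those 6 genes were also the ones in which every GB library lay above every CON and GA library, which held for 13.0% of all tested genes. The 8 genes were chosen with earlier results of these data known, and both comparisons share the GB libraries, so these counts only describe the list. The median log2FC of the 8 was 0.42 in GB vs GA and 0.51 in GB vs CON, beside -0.08 and -0.02 over all tested genes.

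The hormones alone gave no call. In GA vs CON limma called 0 of the 8, where 0.0716% of all genes were called in either direction, and by adjusted p alone it was also 0, where the share of all genes was 0.453%. At an unadjusted p under 0.05 in limma the count was 1, CASP8, beside 8 of the 35 other pathway genes described below. The share of all genes at that cut was not computed, so the count is not read further. All 8 log2FC were above 0, between 0.04 and 0.26, with a median of 0.11 beside 0.06 over all genes. Every 95% interval of this fit lay within -0.43 to 0.64. For TNFSF10, at or near 0 in both groups, the interval depends on the added constant and does not bound its fold. With GC content and the replicate block in the fit, XAF1 was at -0.50 (SE 0.54), so the bounds also depend on the fit.

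**Figure D3:**
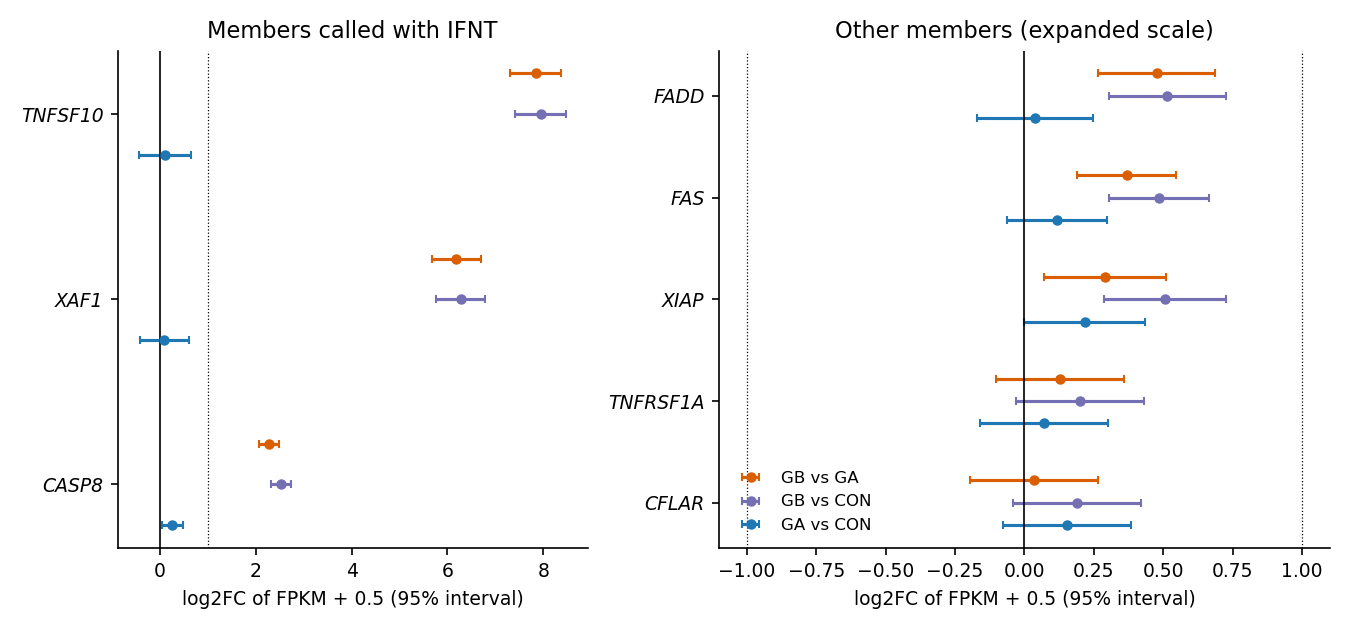
Log2FC of FPKM + 0.5 (horizontal axis) with its 95% interval from limma for the 3 called genes (left) and the other 5 (right, expanded scale) in GB vs GA, GB vs CON and GA vs CON. Dotted lines mark a log2FC of 1, and at right also of -1. The called genes lie past the line of 1 in both comparisons with GB, and the GA vs CON intervals lie near or across 0.

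The order of the levels changed with IFNT. In CON the order by mean FPKM was TNFRSF1A, FADD, FAS, CFLAR, XIAP, CASP8, XAF1 and TNFSF10, and only TNFRSF1A and FADD overlapped as neighbours. The GA order was the same, with CFLAR and XIAP overlapping as well. In GB it was XAF1, FADD, TNFSF10, TNFRSF1A, CASP8, FAS, CFLAR and XIAP, in which FADD overlapped TNFSF10 and CFLAR overlapped XIAP. XAF1 thus moved from place 7 to place 1, TNFSF10 from 8 to 3, and CASP8 from 6 to 5, while CFLAR and XIAP became the lowest. By level, TNFSF10 in CON was above or equal to 16.2% of the genes in the table, and in GB to 90.6%.

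The genes whose pattern over the 9 libraries was most like that of the 3 called genes were found by the root mean square (RMS) difference of log2(FPKM + 0.5) from each gene's CON mean. For TNFSF10 they were OAS1Y (RMS 0.28), an oligoadenylate synthetase gene, MX1 (0.36), a dynamin-like antiviral GTPase gene, and PLAC8 (0.38). For XAF1 they were LOC512486 (0.27), described as a guanylate-binding protein, OAS2 (0.30) and CMPK2 (0.35). For CASP8 they were the proteasome activator subunit gene PSME2 (0.093), TRIM5 (0.12) and PNPT1 (0.12). The RMS is not scaled to the size of the rise, which was smaller for CASP8, so it does not rank closeness between the 3 genes. Mean FPKM in CON was 0.07 for TNFSF10 and 0 for PLAC8 and OAS2, against 6.61 for MX1, 4.07 for OAS1Y and 2.53 for XAF1. How near such patterns lie therefore depends on the added constant of 0.5. PLAC8 and OAS2, like TNFSF10, passed the filter only through GB. Levels differ although the patterns are near on this scale, since MX1 reached an FPKM of 1572 ± 14.5 (SD, n = 3) in GB while PLAC8 reached 134 ± 9.62.

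Around the 8 genes, 45 other genes of the pathway were listed by role, also with earlier results known. Of these, 40 were in the table and 35 were tested. TNF, TNFRSF10A, TNFRSF10B, CASP10 and SEPTIN4 were not analysed here by symbol, and FASLG, LTA, TNFSF15, TNFRSF11B and EDA2R were too low to test. FASLG, the ligand of FAS, did not exceed 0.43 FPKM in any library, whereas TNFSF12, the most abundant listed ligand, lay between 54.61 and 63.37 in all 9. Of the 35 tested, 1 was called higher in GB vs GA, near the 2.66% of all genes, and none lower, against 0.978%. By adjusted p alone 9 of 35 were higher and 4 lower, against 9.87% and 19.2% of all genes. Their median log2FC was 0.02, close to the -0.08 of all genes, whereas that of the 8 genes was 0.42.

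Among the caspases of the list, CASP2 was the most abundant. Its log2FC in GB vs GA was 0.18 with a limma adjusted p of 0.0435, which stayed under 0.05 in 14 of 22 alternatives. CASP6 had a log2FC of -0.21 (adjusted p 0.0829), and CASP9, the initiator of the mitochondrial route, had -0.22 (adjusted p 0.372), both named after their values were seen. All 3 differences are small beside the 2.27 of CASP8.

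RBCK1, a subunit of the linear ubiquitin ligase complex that acts on TNFRSF1A signalling, was the gene called, in both comparisons with GB. Its FPKM was 30.59, 40.73 and 34.95 in CON, 32.90, 35.60 and 34.43 in GA, and 129.14, 122.32 and 119.97 in GB. The GB libraries lay well apart from the others, and the log2FC was 1.84 in GB vs GA (SE 0.091, limma adjusted p 4.9e-07) and 1.80 in GB vs CON. The other subunits, named after their values were seen, differed in size. RNF31, the catalytic subunit, had a log2FC of 0.61 (adjusted p 0.000155), and SHARPIN had 0.02 (95% interval -0.20 to 0.24, adjusted p 0.895). Within this group of 14 adaptors and complex regulators, 5 were higher by adjusted p alone in GB vs GA and none was lower, where 9.87% of all tested genes were higher and 19.2% lower. RIPK1, the kinase at the branch between survival and death signalling, was among them with a log2FC of 0.71 (adjusted p 6.1e-05).

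**Figure D4:**
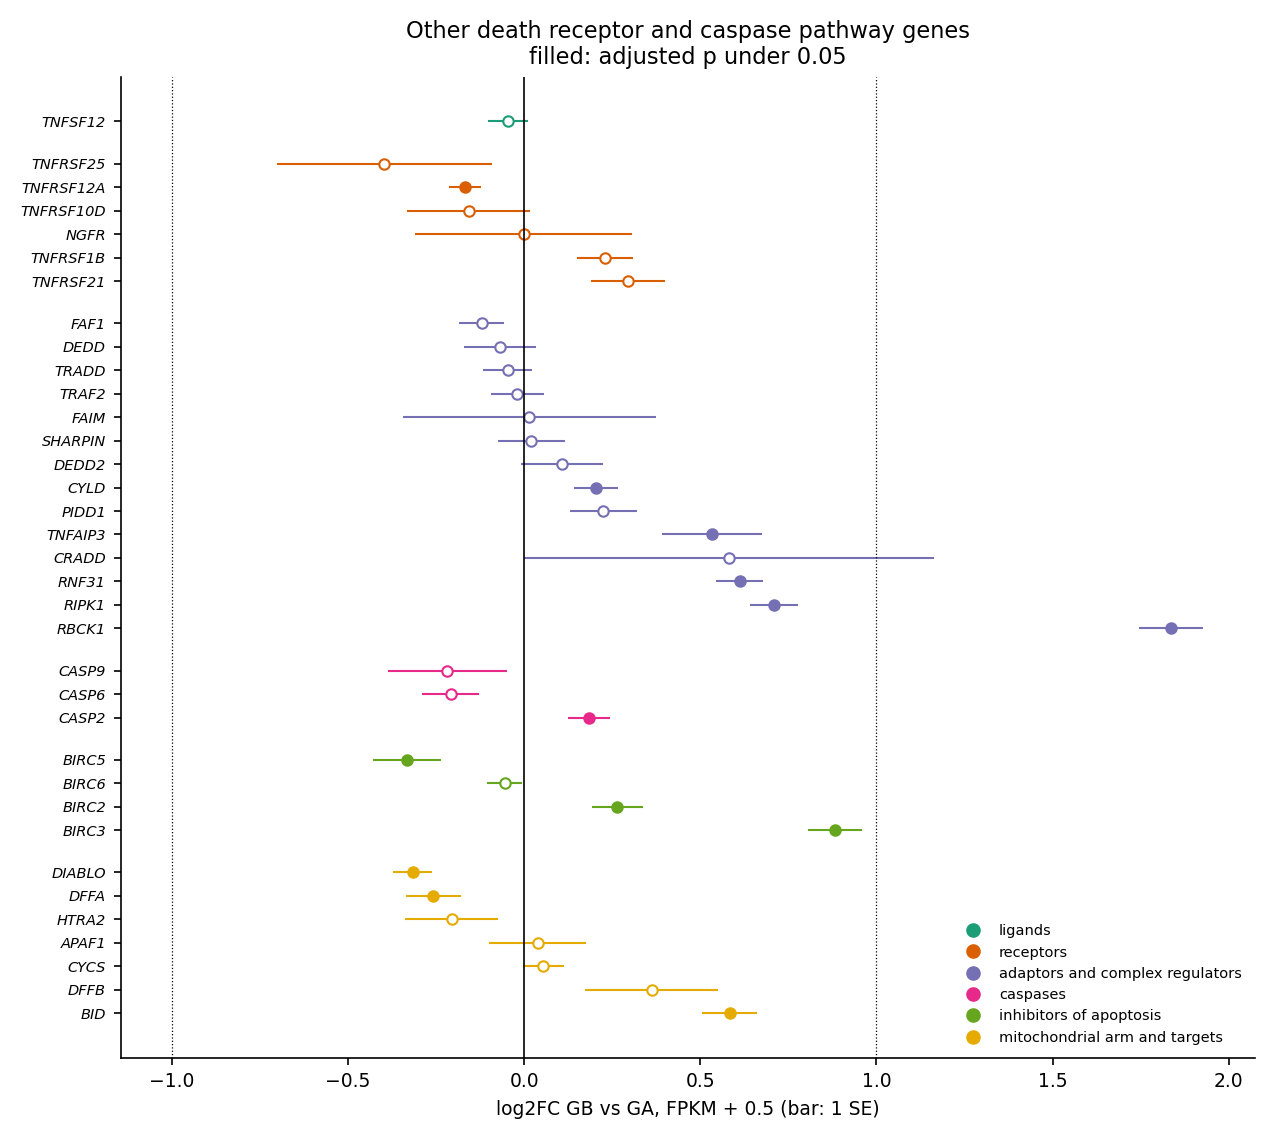
Log2FC of FPKM + 0.5 in GB vs GA (horizontal axis, bars are 1 SE) for the 35 other pathway genes tested, grouped and coloured by role. Filled points have an adjusted p under 0.05, and dotted lines mark log2FC of 1 and -1. RBCK1 at 1.84 is the 1 gene past the line, and most of the others lie between -0.5 and 1.

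Of the 4 other inhibitors of apoptosis, 2 were higher and 1 lower by adjusted p alone in GB vs GA, a list too short to set against the 9.87% and 19.2% of all genes. BIRC3, a ubiquitin ligase of TNF receptor complexes that was named after its values were seen, went from 25.98 in GA (mean FPKM, n = 3) to 45.53, 51.17 and 48.30 in GB, with a log2FC of 0.88 (limma adjusted p 3.3e-05). BIRC5 (survivin), the most abundant of them and also a cell division gene, had a log2FC of -0.33 (adjusted p 0.0298), which held in 15 of 22 alternatives. In the mitochondrial arm, BID, which CASP8 cleaves to connect the 2 routes, had a log2FC of 0.58 in GB vs GA (adjusted p 0.000555). DIABLO, which relieves inhibition by XIAP, had -0.32 (adjusted p 0.0024). Both were named after their values were seen. DIABLO averaged 73.8 FPKM in CON, 88.6 in GA and 71.1 in GB, so that GB lay near CON and GA above both. CYCS, the most abundant gene of the arm, had a log2FC of 0.05 (95% interval -0.08 to 0.18, adjusted p 0.528). The ligand TNFSF12 had -0.05 (adjusted p 0.594), and its receptor TNFRSF12A, the most abundant receptor, had -0.17 (adjusted p 0.0224, under 0.05 in 15 of 22 alternatives). Apart from RBCK1, the genes of the list that moved in GB vs GA thus did so by less than the fold required for a call, in both directions. The 4 lower genes did not pass the test in GB vs CON (limma adjusted p 0.259 to 0.898). Their log2FC there was -0.08 for BIRC5, -0.06 for DIABLO, -0.12 for DFFA and 0.01 for TNFRSF12A. BIRC5 and DFFA passed there in 2 of 22 alternatives each.

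Over all 22 alternatives the adjusted p in GB vs GA stayed under 0.05 for 5 of the 9 higher genes, namely RBCK1, RIPK1, RNF31, BIRC3 and BID, and for DIABLO among the 4 lower genes. Leaving out GB replicate 2 lowered the count of higher genes from 9 to 5. In GB vs CON a second pathway gene passed the call in 2 alternatives, DFFB without CON replicate 3 and BID with GC content and the replicate block in the fit. The share of the FPKM sum from genes of the mitochondrial genome also moved with IFNT, from shares of 1.73% to 1.91% (CON) and 1.96% to 2.02% (GA) down to 0.399% to 0.430% (GB). Rescaling the libraries without those genes kept the 3 members and RBCK1 called. It left the smaller differences in GB vs GA at nearly the same size, with log2FC of 0.37 for FAS (adjusted p 0.0076 in limma), 0.48 for FADD, 0.59 for BID, 0.89 for BIRC3 and -0.31 for DIABLO.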

How the data were processed

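BEND RNA was sequenced by the authors from poly-T-selected, directional, paired-end libraries. Per their methods and submitters' processing notes, reads were trimmed with fastp 0.21.0, rRNA reads were removed with Bowtie2 2.33, and the rest were aligned with HISAT2 2.2.1 to ARS-UCD1.2 and counted with RSEM 1.3.3. For the annotation release and the use of strand, the answer is not given in the sources used here. Deposited by the authors were FPKM values with 2 decimals, 1 column per library. Their DESeq2 test ran on counts, which were not analysed here.

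Here log2(FPKM + 0.5) was fitted without further scaling with limma 3.58.1 (lmFit, eBayes with a variance trend) in R 4.3.3 over 9 libraries, keeping genes whose mean FPKM reached 0.5. Calls needed an adjusted p (Benjamini-Hochberg) under 0.05 and an absolute log2FC above 1. The added constant makes the log2FC of low genes too small. Ratios and sums were compared with exact two-sided permutation tests. Figures used Python 3.11.15 with matplotlib 3.10.9. The procedure was tested on simulated data. Groups came from the sample labels. The members, the pathway list, the markers and the rule for named genes were chosen with earlier results of these data known. By that rule the text names the 8 members, pathway genes called or most abundant in their role, and the 3 nearest patterns of each called member. Other pathway genes were named after their values were seen. Some genes of these lists are not reported here, and counts are over those that are. Symbols of 8 of 8 members matched the RefSeq table of ARS-UCD2.0, used for names and neighbours only. Alternatives were pseudocounts of 1 and 0.1, filters at a mean FPKM of 0 (none) and 1, TPM, rescaling without mitochondrial genes, median-of-ratios factors, quantile normalization, no variance trend, only the 2 groups compared, a replicate block, a GC content covariate from the study's quality table with and without that block, and each library left out.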

Additional observations from a re-analysis of the deposited data

How the results depend on the processing

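The calls of TNFSF10, CASP8 and XAF1 in both comparisons with GB, and of RBCK1, held in each of the 22 alternatives, and none of the 8 genes was called in GA vs CON in any. With GC content in the fit, with or without the replicate block, the genes of the 8 higher by adjusted p alone in GB vs CON fell from 6 to 3, and the other pathway genes from 10 to 5, or to 2 with the block as well. Over all tested genes, those with an adjusted p under 0.05 in GB vs CON, in either direction, fell from 4212 to 1472 and 514 in the same fits. Of the 4212, 2034 were higher, which is 16.2% of all tested genes. No such split is given for the fits with GC content. The SE of FAS, FADD and XIAP rose, and the log2FC of XIAP also fell, from 0.51 to 0.33, or to 0.20 with the block. Without GB replicate 2 the pathway count in GB vs GA was 5, and over libraries left out it ran from 5 to 9. In GB vs CON 2 pathway genes in place of 1 were called with GC content and the block, and 1 to 2 over libraries left out. Deviations from the group means correlated weakly between same-numbered libraries (r -0.03 to 0.08) and between the others (-0.07 to 0.06). A pairing by number was thus not seen, but r this small does not settle whether libraries shared an origin. The replicate block alone called 3 members in each comparison with GB, and of the pathway genes CASP2 and CYLD lost an adjusted p under 0.05 in GB vs GA.

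Signs turned only where a difference had not passed the test, and the cause was not tested. With GC content TNFRSF1A reached -0.18 in GB vs CON and -0.28 in GA vs CON (-0.050 and -0.17 with the block), CFLAR -0.016 and -0.039, and FADD -0.059 in GA vs CON. With GC content and the block GA vs CON gave -0.25 for TNFSF10, -0.076 for XIAP and -0.50 for XAF1. FADD was -0.022 in GA vs CON under median-of-ratios factors and -0.019 under quantile normalization, and TNFSF12 was 0.029 in GB vs GA under the former. Leaving out single libraries gave -0.063 to 0.12 for CFLAR in GB vs GA, and in GA vs CON -0.18 to 0.28 for TNFSF10, -0.031 to 0.14 for TNFRSF1A, -0.039 to 0.13 for FADD, -0.16 to 0.29 for XAF1 and -0.37 to 0.088 for the XAF1 to XIAP ratio. The receptor-like sum, whose alternatives were chosen after seeing the data, ran from -0.049 to 0.22 in GB vs CON. Depth limits the values listed at 0 and the fold of TNFSF10.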
